A study of Homo sapiens with 3 samples.

Results

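The SRC family kinases SRC, YES1, FYN, LYN, LCK and FRK and their regulator CSK were followed by RNA sequencing in Ishikawa, an established human cell line from an endometrial adenocarcinoma. These 7 genes were taken by symbol, each matching 1 row, from 35713 rows used of the deposited table. The rule names them and uses no measured value, but it was set with earlier results of these data known. The 3 libraries were CLDN6 replicates 1 and 2, from cells that overexpressed CLDN6, and 1 library of untreated wild-type cells (WT). The labels name Ishikawa for every library, but the columns of the table start with ECC-1, itself the name of an endometrial cancer line, so the identity of the cells rests on the labels. All were grown in the same medium with serum. CLDN6, the gene of the tight junction protein claudin-6, was carried by a lentiviral vector made in HEK293T cells, and the labels call the overexpression transient. The labels name neither an empty-vector control, nor a time after infection, nor separate cultures, so effects of the vector and of CLDN6 cannot be told apart, and the spread between libraries may be technical. The series asks how claudin-6 adhesion signals act through estrogen receptor alpha, and kinases of this family are held to carry that signal.

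SRC family kinases are tyrosine kinases at the inner face of the plasma membrane, where they pass signals from adhesion molecules and receptors to focal adhesions, the cytoskeleton and the PI3K and AKT kinases. CSK switches them off by phosphorylating a tyrosine in their tail, which then folds back onto the SH2 domain of the same molecule. Phosphatases remove that phosphate and open the kinase. Activity is thus set on the protein, and the level of RNA measures only how much transcript was present.

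The coding sequences show the feature that CSK acts on and a base composition that recurs in the data. Below are the last 60 coding bases of 5 kinases and of CSK, from GENCODE release 29 transcripts (GRCh38). Capitals mark the last tyrosine codon of each kinase, the known target of CSK or, in FRK, its counterpart.
SRC (chr20:37403317-37403376, plus strand): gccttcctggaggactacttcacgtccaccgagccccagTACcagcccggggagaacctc
YES1 (chr18:724427-724486, minus strand): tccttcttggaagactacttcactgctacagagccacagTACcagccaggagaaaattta
FYN (chr6:111661742-111661801, minus strand): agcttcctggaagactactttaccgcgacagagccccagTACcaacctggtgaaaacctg
LCK (chr1:32285654-32285713, plus strand): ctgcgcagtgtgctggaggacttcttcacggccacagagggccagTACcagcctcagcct
FRK (chr6:115942417-115942476, minus strand): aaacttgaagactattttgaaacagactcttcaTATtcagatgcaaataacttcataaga
CSK (chr15:74802451-74802510, plus strand): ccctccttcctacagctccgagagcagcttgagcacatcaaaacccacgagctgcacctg
The marked codon was followed by 6 more codons in SRC, YES1 and FYN, by 4 in LCK and by 8 in FRK. In CSK the last tyrosine codon lay 34 codons before the end, outside the stretch shown. Over these 60 bases the GC content was 65.0% in SRC, 63.3% in LCK and 58.3% in CSK, against 53.3% in FYN, 45.0% in YES1 and 28.3% in FRK. Over the whole coding sequence, the last base of the codon was G or C in 84.3% of codons in SRC, 79.3% in CSK and 75.6% in LCK. The same share was 54.7% in FYN, 52.7% in LYN, 44.0% in FRK and 29.3% in YES1.

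The first 30 coding bases show how the kinases differ at the end that holds them at the membrane. Capitals mark cysteine codons among the first 6 codons, since cysteines near a glycine at the second codon are known sites of palmitoylation and the glycine of myristoylation.
SRC (chr20:37384154-37384183, plus strand): atgggtagcaacaagagcaagcccaaggat
YES1 (chr18:756798-756827, minus strand): atgggcTGCattaaaagtaaagaaaacaaa
FYN (chr6:111720022-111720051, minus strand): atgggcTGTgtgcaaTGTaaggataaagaa
LCK (chr1:32274330-32274359, plus strand): atgggcTGTggcTGCagctcacacccggaa
FRK (chr6:116060282-116060311, minus strand): atgagcaacatcTGTcagaggctctgggag
CSK (chr15:74798298-74798629, plus strand, with an intron inside): atgtcagcaatacaggccgcctggccatcc
SRC, YES1, FYN and LCK have a glycine codon as the second, as does LYN, whereas FRK and CSK do not. SRC has 0 cysteine codons among the first 6, YES1, LYN and FRK have 1, and FYN and LCK have 2.

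The unit of level is RPM, a gene's reads per 1000000 reads of the library. Depth was 71088867 reads in CLDN6 replicate 1, 65755119 in CLDN6 replicate 2 and 67843384 in WT. The limit that 0 reads allow, 3 reads, came to 0.0422, 0.0456 and 0.0442 RPM. The overexpressed gene was checked first. CLDN6 stood at 354 RPM in replicate 1 and 413 RPM in replicate 2, against 0.236 RPM in WT, as the labels say. Epithelial markers were high in all 3 libraries, with KRT8 between 3529 and 3803 RPM and EPCAM between 98.5 and 194 RPM. The CLDN6 libraries stood apart from each other. Of 14509 genes tested, 43.4% differed by 2-fold or more between them on the log2(RPM + 1) scale, on which all log2 differences below are given and which understates the change of low genes. The median gene lay 0.20 above WT in replicate 1 and at -0.35 in replicate 2, and genes of low GC content were the higher ones in replicate 1.

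SRC, the founding member of the family, was read at 19.3 RPM in WT, 15.5 RPM in CLDN6 replicate 1 and 22.5 RPM in CLDN6 replicate 2. WT thus lay between the CLDN6 libraries, whose span was narrow. The level in replicate 2 was 1.45 times that in replicate 1, with a 95% exact binomial interval of 1.34 to 1.57. This interval and those below cover counting error only, since copies made by PCR are not independent molecules. In bulk RNA, fewer cells with a transcript and less transcript per cell cannot be told apart. The gene, ENSG00000197122, spans 37344685 to 37406050 of chromosome 20 (plus strand) in the coordinates of the deposited table, as do those given below for the other members (GRCh38).

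YES1, a close relative of SRC, was read at 52.2 RPM in WT, 70.0 RPM in CLDN6 replicate 1 and 20.3 RPM in CLDN6 replicate 2. Replicate 2 was the low library, at 0.389 times the WT level (interval 0.365 to 0.414), and replicate 1 was 1.34 times WT (1.28 to 1.40). The gene, ENSG00000176105, spans 721588 to 812546 of chromosome 18 (minus strand). Its reads are uncertain on 2 counts. The span of the antisense gene RP11-769O8.1 overlaps that of YES1, introns included, by 1714 bases, and an overlap of exons was not checked. This antisense gene was read at 2.64 and 0.639 RPM in CLDN6 replicates 1 and 2 and at 1.93 RPM in WT, far below YES1. The strand setting of the counts is not given in the sources used here. A processed pseudogene, YES1P1, also resembles its transcript.

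FYN, a kinase of adhesion and immune receptor signaling, was read at 7.15 RPM in WT, 17.8 RPM in CLDN6 replicate 1 and 2.71 RPM in CLDN6 replicate 2. The CLDN6 libraries lay far to either side of WT, at 2.49 times its level (2.24 to 2.77) and at 0.379 times (0.317 to 0.451). Their own ratio was 6.58 (5.62 to 7.74). The gene, ENSG00000010810, spans 111660332 to 111873452 of chromosome 6 (minus strand).

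FRK, a more distant member made mainly in epithelial cells, was read at 5.14 RPM in WT, 6.71 RPM in CLDN6 replicate 1 and 0.867 RPM in CLDN6 replicate 2. Replicate 2 stood alone as the low library, with 57 reads against 477 and 349. The ratio of replicate 1 to replicate 2 was 7.74 (5.87 to 10.4). The gene, ENSG00000111816, spans 115931149 to 116060758 of chromosome 6 (minus strand).

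LYN, best known from blood cells but also made in epithelia, was read at 11.9 RPM in WT, 13.3 RPM in CLDN6 replicate 1 and 8.35 RPM in CLDN6 replicate 2. Replicate 2 was again the lowest, at 0.705 times WT (0.631 to 0.786), a smaller gap than in YES1, FYN and FRK. The gene, ENSG00000254087, spans 55879813 to 56011381 of chromosome 8 (plus strand).

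LCK, the kinase of the T cell receptor, was read at 0.619 RPM in WT, 0.520 RPM in CLDN6 replicate 1 and 1.44 RPM in CLDN6 replicate 2. Only 42 reads in WT and 37 and 95 in the CLDN6 libraries stand behind these values, and replicate 2 was the high library, at 2.33 times WT (1.61 to 3.44). The gene, ENSG00000182866, spans 32251239 to 32286165 of chromosome 1 (plus strand). Of 8 T cell markers, 4 (CD3D, CD3E, CD3G and CD2) had 0 reads in each library, and the 8 together summed to 3.04 RPM in replicate 1, 1.32 in replicate 2 and 2.93 in WT. Most of that sum was CD4, at 2.28, 0.335 and 2.18 RPM, lowest in replicate 2, where LCK was highest. CD8A was nearly level between the CLDN6 replicates, at 0.731, 0.760 and 0.590 RPM (52, 50 and 40 reads). CD247 was highest in replicate 2, at 0.0141, 0.228 and 0.118 RPM, but on 1, 15 and 8 reads. The part of such cells in the level of LCK was not tested. With a mean of 0.861 RPM, LCK fell under the minimum mean of 1 RPM and was not tested.

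CSK, the inhibitor of the family, was read at 146.8 RPM in WT, 78.7 RPM in CLDN6 replicate 1 and 142.8 RPM in CLDN6 replicate 2. It was the sole member with both CLDN6 libraries below WT, but replicate 2 differed from WT by no more than counting error allows, with a ratio of 0.972 (0.945 to 1.0002), and under the TMM-like and RLE scalings it lay above WT. Replicate 1 was at 0.536 times WT (0.518 to 0.554). The gene, ENSG00000103653, spans 74782057 to 74803198 of chromosome 15 (plus strand).

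**Figure D1:**
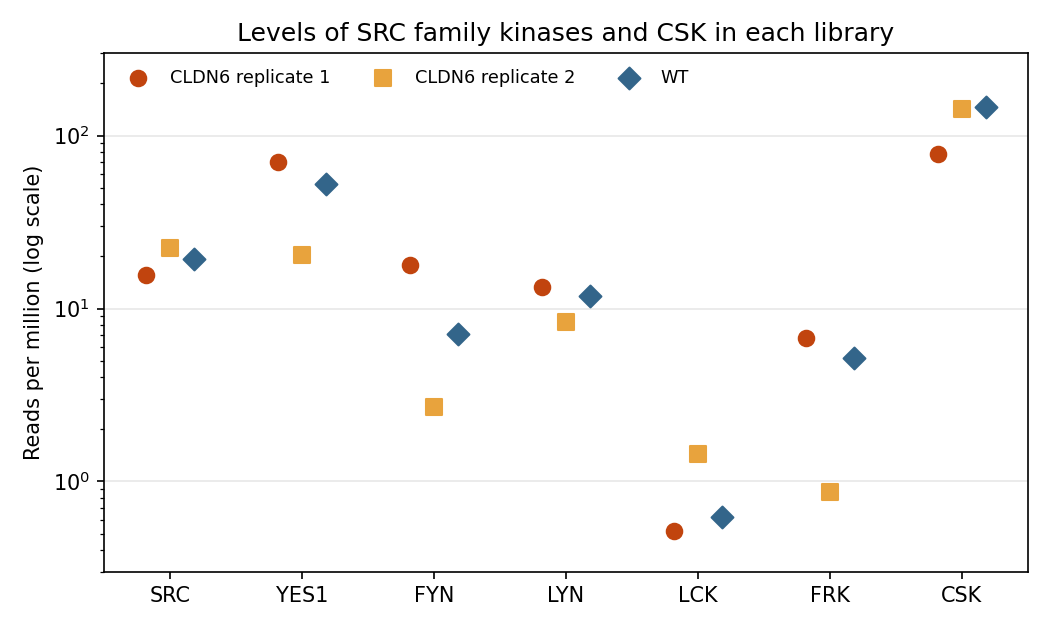
Level of each SRC family kinase and CSK in RPM (vertical log axis) in CLDN6 replicate 1, CLDN6 replicate 2 and WT, with 1 point per library. WT lies between the CLDN6 libraries for every gene except CSK, where replicate 2 (142.8 RPM) is just below WT (146.8 RPM).

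The comparison of CLDN6 with WT asks whether added claudin-6 goes with more or less transcript of the kinases. By limma with Benjamini-Hochberg adjustment, 0 of the 6 members tested passed at an adjusted p under 0.05, and 0 had an unadjusted p under 0.05. In limma the background was low as well, since 0.00689% of all genes tested passed, which was CLDN6 alone. Its unadjusted p was under 0.05 in 4 of 14509 genes. Limma-voom, run on the whole reads behind the RPM values, likewise called 0 members, and its unadjusted p was under 0.05 in 0. It called 0 of all genes tested, CLDN6 included, with 8 at an unadjusted p under 0.05, so its 0 members carry no information of their own. Between CLDN6 and WT, the log2 difference was -0.04 ± 1.15 (SE) for SRC, -0.45 ± 1.01 for YES1, 0.04 ± 1.27 for FYN, -0.15 ± 1.24 for LYN, -0.70 ± 1.21 for FRK and -0.47 ± 0.93 for CSK. Each had an adjusted p of 0.99996 (limma, Benjamini-Hochberg). WT is 1 library, so the spread comes from the CLDN6 pair, pooled over genes. The prior degrees of freedom were infinite, so each SE is that of genes at a like mean level. It does not measure the spread of that gene's own pair. A 2-fold difference, 1 log2 unit, is about the size of these SEs. Absence of a difference is not shown. The sign for SRC turned to positive under the TMM-like and RLE scalings and after removal of the GC trend, and that for FYN to negative with a pseudocount of 0.1 RPM and with limma-voom.

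In 5 of 6 members tested WT lay between the CLDN6 libraries, beside 75.9% of all genes tested, and LCK, not tested, had the same order. Both CLDN6 libraries lay below WT in 1 member, CSK, beside 15.1% of all genes, and both above in 0, beside 9.06%. With TMM-like or RLE scaling the member with both libraries below WT was LYN in place of CSK. Over the 6 members the median log2 difference from WT was 0.24 in replicate 1 and -0.80 in replicate 2, beside 0.20 and -0.35 over all genes. In replicate 2, YES1 (-1.32), FYN (-1.14) and FRK (-1.72) were at least 2-fold below WT, as were 18.4% of all genes. In replicate 1, FYN (1.21) was at least 2-fold above WT, as were 6.69% of all genes. No more than a few percent of all genes were 2-fold lower in replicate 1 (1.16%) or 2-fold higher in replicate 2 (1.77%). Of the members tested, 0 were. LCK, not tested, was at 0.59 above WT in replicate 2, though at 2.33 times WT in RPM. In both CLDN6 libraries together, 0 members were 2-fold or more above WT, beside 0.0345% of all genes, and 0 were 2-fold or more below, beside 0.193%. The members' counts for the order around WT were thus near those of genes at large.

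The largest contrast among these genes was between the CLDN6 replicates, where the members fell into 2 sets. FYN, FRK and YES1 were at least 2-fold higher in replicate 1 than in replicate 2, by log2 differences of 2.34, 2.05 and 1.74, and LYN was higher by 0.61. SRC, LCK and CSK were higher in replicate 2, with differences of -0.51, -0.69 and -0.85. In RPM, LCK in replicate 2 was 2.78 times its level in replicate 1, but LCK was not tested. So 3 of 6 members tested were at least 2-fold apart, all 3 in the direction in which 36.2% of all genes were, and 0 in the opposite direction, beside 7.15% of all genes. With TMM-like scaling SRC and CSK were also at least 2-fold apart, higher in replicate 2. This makes 5 members, beside 41.2% of all genes under that scaling.

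The sets line up with the GC content of the transcripts. The longest transcripts of YES1, FRK, LYN and FYN had a GC content of 37.7%, 38.9%, 45.7% and 48.4%, and those of LCK, SRC and CSK 56.6%, 59.3% and 63.6%. Each member can be set beside genes within 2 percentage points of its GC content. Genes like YES1 had a median difference between replicates 1 and 2 of 1.59, and those like FRK of 1.52, close to the values of these kinases. Genes like LYN had a median of 0.83, and the medians were -0.18, -0.25 and -0.34 around LCK, SRC and CSK. FYN was at 2.34 against a median of 0.51 and a range from the 10th to the 90th percentile of -0.67 to 1.72. It lay above 96.3% of the 1884 genes of like GC content, so some such genes lay higher still. Such a range leaves genes outside at both ends by its making. The other 6 members lay inside the corresponding ranges. These positions are descriptions of 2 libraries, with no test.

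Each library's dependence on GC content, on the length of the transcript and on mean level was then fitted and removed. Replicate 1 then differed from replicate 2 by 2.09 for FYN and 1.04 for YES1, the 2 members still at least 2-fold apart, beside 28.3% of all genes. The difference was 0.49 for CSK, 0.16 for FRK, -0.08 for SRC and -0.12 for LYN. This removal leaves the medians of the libraries apart, and in a further step, added after the data were seen, they were aligned. The replicates then differed by 0.48 for YES1 in place of 1.74, by -0.40 for FRK in place of 2.05 and by -0.07 for CSK in place of -0.85. For SRC the difference was -0.64, and for LYN it turned from 0.61 to -0.67. FYN kept a difference of 1.54, at 0.86 above WT in replicate 1 and at -0.68 in replicate 2, and was then the sole member at least 2-fold apart, beside 16.0% of all genes. CSK was at -0.35 and -0.28 from WT, YES1 at -0.11 and -0.60, and FRK at -0.69 and -0.29, so that both CLDN6 libraries lay below WT in these 3. In this fit the share of all genes with both CLDN6 libraries on the same side of WT was 39.5%, and 0 members passed the test (limma, Benjamini-Hochberg).

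**Figure D2:**
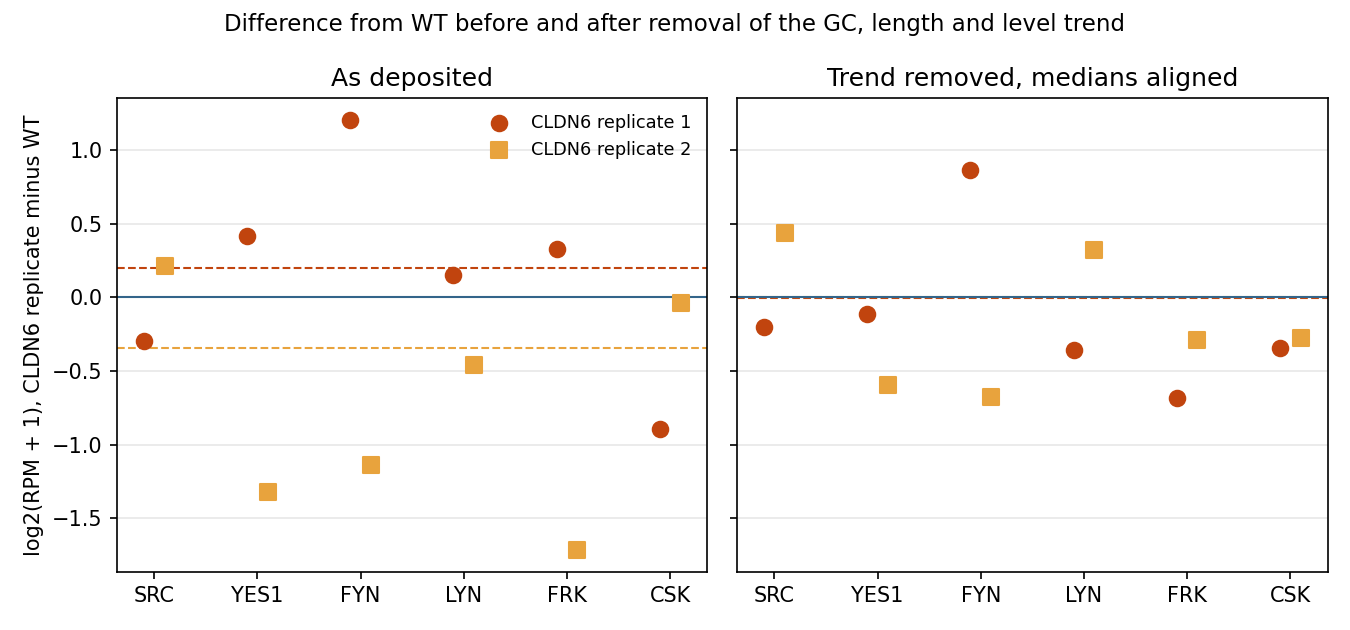
Difference of each CLDN6 replicate from WT on the log2(RPM + 1) scale (vertical axis) for the 6 members tested, as deposited (left) and after removal of the GC, length and level trend with medians aligned (right). Dashed lines give the median of all genes in each replicate, and FYN is the member whose replicates stay farthest apart (0.86 and -0.68).

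Levels of different genes were compared per kilobase (kb) of exons. CSK had the highest level per length in every library, at 17.2, 31.2 and 32.1 RPM per kb in CLDN6 replicate 1, CLDN6 replicate 2 and WT. YES1 came next at 13.7, 3.98 and 10.2 RPM per kb. SRC followed in WT and replicate 2, at 2.40, 3.47 and 2.98 RPM per kb in the order of libraries above.

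The lower members were LYN at 2.14, 1.35 and 1.92 RPM per kb, FYN at 2.40, 0.365 and 0.965, FRK at 0.507, 0.0655 and 0.389, and LCK at 0.156, 0.433 and 0.185. Over the 3 libraries the range of CSK lay above that of YES1, and the range of YES1 above that of SRC. The ranges of FYN and SRC overlapped, as did those of FYN and LYN, of FYN and LCK and of FRK and LCK. FYN was level with SRC in replicate 1 and below it elsewhere. The order of FYN and LYN, of FYN and LCK and of FRK and LCK changed between libraries. LCK (0.433) was above FYN (0.365) in replicate 2 alone. FYN was above FRK in each library, although their ranges over libraries overlap. With the longest transcript as the length, SRC (4.85 RPM per kb) stood above YES1 (4.38) in replicate 2. By that length FYN (4.91) stood above SRC (3.35) in replicate 1, and FYN (0.746) above LCK (0.667) in replicate 2.

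The makeup of the family shifted between libraries. YES1 made up 64.3% of the summed level per length of the 6 kinases in CLDN6 replicate 1, 41.2% in replicate 2 and 61.4% in WT. The share of SRC was 11.2%, 35.9% and 17.9%, and that of FYN 11.3%, 3.78% and 5.78%. With the longest transcript the share of FYN was 18.6%, 6.14% and 9.80%, and in replicate 2 the share of SRC (39.9%) passed that of YES1 (36.1%). The sum of the 6 kinases was 21.3, 9.67 and 16.7 RPM per kb, and its ratio to CSK was 1.24, 0.310 and 0.519. With the longest transcript as the length the ratio was 0.928, 0.235 and 0.379, so that the sum was below CSK in replicate 1 too. In the sum and in this ratio WT came between the CLDN6 libraries. The ratio of SRC alone to CSK was 0.139, 0.111 and 0.0929 per length, so that both CLDN6 libraries were above WT there. The ratios have no test, and they set genes of different GC content against each other.

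**Figure D3:**
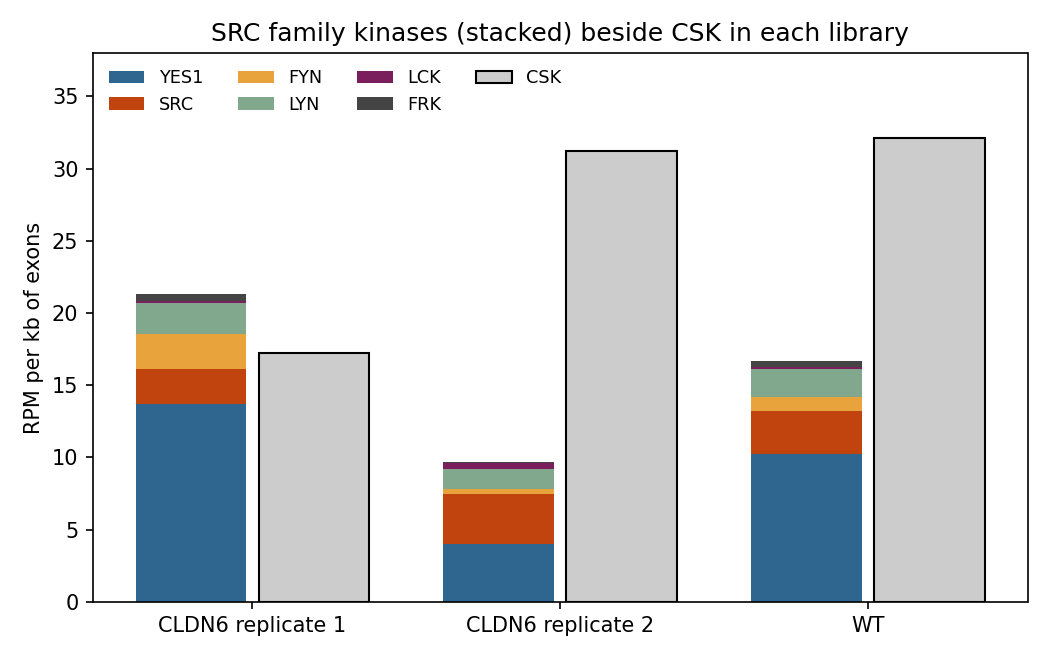
Level per length in RPM per kb of exons (vertical axis, from 0) of the 6 SRC family kinases, stacked, beside CSK, in each library. The stack exceeds CSK in replicate 1 (21.3 against 17.2 RPM per kb, but 26.4 against 28.4 with the longest transcript as the length) and lies below it in replicate 2 (9.67 against 31.2) and in WT (16.7 against 32.1).

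Other kinases of the family and its BRK relatives were low. FGR and BLK, kinases of myeloid and B cells, had 0 reads in each library, which leaves room for levels of 0.0422, 0.0456 and 0.0442 RPM at most. PTK6, also called BRK and made in epithelia, was read at 3.91, 6.01 and 4.89 RPM in CLDN6 replicate 1, CLDN6 replicate 2 and WT, the order kept for all values from here on, and its relative SRMS at 1.80, 3.24 and 3.24 RPM. Both were lowest in replicate 1, like SRC and CSK.

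Regulators around CSK and the tail phosphate were taken from fixed lists. In 6 lists with 65 genes, 52 were tested and 0 passed in either direction (limma, Benjamini-Hochberg), beside 0.00689% of all genes tested. The unadjusted limma p was under 0.05 in 0 of them, beside 4 of 14509 genes. Limma-voom called 0 of them and 0 of all genes tested. With so few genes passing anywhere, 0 passing here or in the single lists below says little about these genes. Their median log2 difference from WT was 0.21 in replicate 1 and -0.64 in replicate 2. Of the 52, 26 differed by 2-fold or more between the CLDN6 replicates, 25 of them higher in replicate 1, beside 43.4% and 36.2% of all genes tested. WT lay between the replicates in 43, beside 75.9% of all genes tested, and above both in 8, beside 15.1%.

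MATK, the paralog of CSK, was read at 21.9, 30.5 and 24.2 RPM, a narrow span. The membrane anchor PAG1, which brings CSK to its targets, was at 2.36, 0.319 and 0.457 RPM and was high in replicate 1 alone. The adaptor LIME1 was at 3.19, 1.43 and 2.31 RPM, and SRCIN1, an inhibitor of SRC, at 2.80, 0.319 and 1.68 RPM. Of these 4 genes, 0 passed in either direction.

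Among the tyrosine phosphatases, 9 of 11 were tested and 0 passed. PTPRJ was read at 135.5, 136.8 and 168.6 RPM, so that the CLDN6 libraries nearly coincided and both lay below WT. PTPN11, the phosphatase SHP2, was at 181, 61.0 and 136 RPM, and PTPRA, which removes the tail phosphate of SRC, at 77.9, 30.3 and 57.3 RPM. For both, replicate 2 was the low library, as for YES1. Of the 9, 6 were at least 2-fold higher in replicate 1 than in replicate 2, beside 36.2% of all genes.

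Adaptors and substrates numbered 23, of which 21 were tested and 0 passed. The catenin gene CTNND1 was read at 196, 112 and 192 RPM, and KHDRBS1, the RNA-binding substrate Sam68, at 153, 87.8 and 129 RPM. PXN, the focal adhesion adaptor paxillin, was at 95.6, 138 and 118 RPM, the opposite order. ARHGAP35, a substrate of these kinases, was farthest from WT in the mean, at 110.7, 38.1 and 98.9 RPM, and its distance came from replicate 2.

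The PI3K, AKT and SGK arm had 13 of 17 genes tested and 0 passing, and 8 of the 13 were at least 2-fold higher in replicate 1 than in replicate 2, beside 36.2% of all genes. PIK3R2, a regulatory subunit, was read at 167, 156 and 181 RPM. AKT1 was at 115.7, 166 and 186 RPM and AKT2 at 87.2, 107 and 105 RPM, both lowest in replicate 1. SGK1, a kinase related to AKT, was the sole gene of the 52 with both CLDN6 libraries above WT, beside 9.06% of all genes tested. It was read at 4.37, 6.57 and 2.64 RPM and had an adjusted p of 0.99996 (limma, Benjamini-Hochberg).

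Of the nuclear receptors at the end of this axis, 3 of 5 were tested and 0 passed. The retinoic acid receptor RARG was read at 42.5, 39.1 and 64.1 RPM, with both CLDN6 libraries below WT and near each other, and RARA at 15.8, 15.0 and 17.0 RPM. ESR1, the gene of estrogen receptor alpha, was at 99.8, 17.2 and 71.7 RPM, in the order of YES1, FYN and FRK. ESR2 was at 0.591, 0.167 and 0.339 RPM and RARB at 0.90, 0.0912 and 0.398 RPM, both under the minimum mean of 1 RPM.

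Likeness of pattern was measured as the distance between pairs of log2 differences from WT in the 2 CLDN6 libraries, among the 57 other genes tested of the family and the fixed lists. Nearest to SRC were PXN at 0.02, PTK6 at 0.05 and AKT2 at 0.18. Nearest to CSK were AKT1 at 0.24, SRMS at 0.30 and SHC1 at 0.45, the last an adaptor read at 64.3, 114 and 94.9 RPM. Of 14508 other genes tested, 10 were at least as near to SRC as PXN, 65 as PTK6 and 753 as AKT2. At least as near to CSK were 105 for AKT1, 174 for SRMS and 570 for SHC1. Genes outside the lists thus came as near, and each pattern rests on 3 libraries.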

How the data were processed

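The authors deposited 1 table of log2 values per gene for 3 libraries, on GRCh38 per the submitters' processing notes. Not given in the sources used here are the strandedness, the read counter, the aligner and the annotation used. Columns carry the prefix ECC-1, the name of another endometrial line that is in no label, and were matched by CLDN6 1, CLDN6 2 and WT. Values under 20000 reads were whole multiples of 1 read in each library (100.0% within 0.05 of a read), so they are log2 of RPM, and genes listed at 0.9 of a read were set to 0. Of 35805 rows, 92 were left out, for lack of a gene ID or for a repeated ID with 0 reads. Between the CLDN6 replicates the chi-square per gene was 644, so both were kept as libraries.

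On log2(RPM + 1), limma 3.58.1 (R 4.3.3) was fitted with a mean-variance trend to the 14509 genes whose mean reached 1 RPM. Residual degrees of freedom were 1, prior ones infinite, and WT was assumed to vary like the CLDN6 pair. Tests were two-sided with Benjamini-Hochberg adjustment over all genes and a threshold of 0.05. The fit was also run on simulated data with noise drawn independently for each gene. Those data lack the GC-linked differences of these libraries, so they do not show how the fit performs here. GC content and lengths came from GENCODE release 29, with trends fitted by splines of 5 degrees of freedom over 14372 genes.

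The members and gene lists were chosen with earlier results of these data known. Named were all members, CLDN6, the 3 genes of highest mean and the gene farthest from WT in each list, all nuclear receptors and other family kinases listed, and the 3 genes nearest in pattern to SRC and to CSK, except 1 gene that is not reported here. Alternatives were a pseudocount of 0.1 RPM, no filter, a mean of at least 5 RPM, other scalings and lengths, limma-voom, removal of the trend, and each CLDN6 replicate left out. Alignment of medians after that removal was added once the data were seen.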

Additional observations from a re-analysis of the deposited data

How the results depend on the processing

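Under the alternatives, 0 members passed the limma test, with adjusted p from 0.99993 to 1.0 over 48 fits of single members. The log2 difference of SRC, -0.043, became 0.024 with TMM-like scaling, 0.067 with RLE scaling, 0.037 after removal of the trend and 0.12 with medians aligned as well. That of FYN, 0.035, became -0.032 with a pseudocount of 0.1 RPM and -0.028 with limma-voom. With either CLDN6 replicate left out, a value without a test, the difference ranged from -0.30 to 0.21 for SRC, -1.32 to 0.42 for YES1, -1.14 to 1.21 for FYN, -0.46 to 0.15 for LYN, -0.09 to 0.59 for LCK, -1.72 to 0.33 for FRK and -0.89 to -0.04 for CSK. For YES1, FYN, LYN and FRK the positive value is that without replicate 2.

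All genes called numbered 1 in the limma fit, 0 without a filter (1303 at an unadjusted p under 0.05) and 0 with limma-voom (8 at an unadjusted p under 0.05). Members at least 2-fold apart between the replicates numbered 3, then 5 with TMM-like scaling and 1 after removal of the trend with medians aligned. The share of all genes was 43.4%, 41.2% and 16.0% in these fits. Members with both replicates on the same side of WT numbered 1, beside 24.1% of all genes. After removal of the trend they numbered 3, LYN, FRK and CSK without medians aligned and YES1, FRK and CSK with them. The share of all genes rose as well, to 30.4% without medians aligned and 39.5% with them. The cause of these shifts was not tested. Leaving out a replicate gives no value for these counts. With the longest transcript as the length, levels per kb in CLDN6 replicate 1, CLDN6 replicate 2 and WT were 3.35, 4.85 and 4.17 for SRC, 15.1, 4.38 and 11.3 for YES1, 4.91, 0.746 and 1.97 for FYN, 0.240, 0.667 and 0.286 for LCK, and 28.4, 51.6 and 53.1 for CSK. No paired analysis was possible because WT is a single library whose label carries no replicate number. Depth limits LCK, read with 37 to 95 reads, more than the other members, and LCK was tested in the fit without a filter alone. FRK could not be fitted with a minimum mean of 5 RPM.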

Other observations

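CAV1, the gene of caveolin-1, a membrane scaffold and substrate of SRC, had 36.8 RPM in WT, 7.99 RPM in CLDN6 replicate 1 and 82.1 RPM in replicate 2. It was the sole gene of the 52 tested in the fixed lists that was at least 2-fold higher in replicate 2 than in replicate 1. Of all genes tested, 7.15% were. CAV1 has a GC content of 46.2%, close to that of LYN (45.7%), and is named here after its values were seen. COL1A1, a collagen gene of the fibroblast marker list, was also highest in replicate 2, at 16.3, 48.6 and 20.8 RPM in CLDN6 replicate 1, CLDN6 replicate 2 and WT, the order of the values that follow, while COL3A1 was lowest in replicate 2 (0.760, 0.137 and 0.840 RPM), COL1A2 highest in WT (0.183, 0.70 and 0.796 RPM), and DCN, LUM and PDGFRB of that list had 0 reads in all 3 libraries. VWF, of the endothelial list, was at 16.3, 12.5 and 9.99 RPM, while PECAM1 of that list had 0 reads. The summed level of the myeloid markers was 0.760, 1.08 and 1.31 RPM, and that of the B cell markers 1.31, 0.654 and 1.30 RPM.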
